A study of Homo sapiens with 24 samples.

Results

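SBC-3 is a human cell line that the labels describe as small cell lung cancer, and the 6 libraries described here are its 2 control transfections: 3 siCtrl libraries, from cells given a control siRNA, and 3 ASO-Ctrl libraries, from cells given a control antisense oligonucleotide. Both groups carried the genotype WT, both oligonucleotides were introduced at 10 nM with the same lipid reagent, and both sets of cells were harvested at 72 h. The members are all 2652 mature miRNAs in the count files, read in these 6 of the 24 libraries of the series, with the synthetic spike-ins set apart and 1 genomic locus kept for each mature miRNA out of 2883 loci (the locus with the largest total). The other 18 libraries carried siRNAs to SFPQ or NONO, or antisense oligonucleotides to NEAT1, in a study of how these factors act on miRNA production. The comparison asks what the baseline miRNA profile of the line is, and how far it differs with the kind of control oligonucleotide. There is 1 control of each kind and no untransfected cells among the samples, so the kind of oligonucleotide and its particular sequence cannot be told apart. Nothing in the labels says whether the 3 replicates of a group came from separate cultures, so p-values measure only the spread between libraries within groups (all 8 groups of the series, which share one fit), which may be technical.

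A miRNA is a short RNA cut from a hairpin, first by Drosha in the nucleus and then by Dicer in the cytoplasm, and loaded into an Argonaute protein. Its seed, bases 2 to 8 from the 5′ end, pairs with target messenger RNAs, so miRNAs with the same seed share many targets. The 5p and 3p names mark the arm of the hairpin, and usually one arm (the guide) is kept while the other is degraded. An siRNA is a short duplex that enters the same Argonaute proteins, whereas an antisense oligonucleotide is a single strand that pairs with its target without them and commonly directs RNase H to cut it.

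The sequences below are those of the miRNAs on which the baseline profile and the comparison turn, taken from RefSeq for GRCh38.p14, with the seed in capitals. The first set holds the most abundant miRNAs with distinct seeds.
miR-9-5p: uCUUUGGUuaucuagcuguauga
miR-335-5p: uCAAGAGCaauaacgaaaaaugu
miR-335-3p: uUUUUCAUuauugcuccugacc
miR-19a-3p: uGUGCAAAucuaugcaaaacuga
miR-199a-3p: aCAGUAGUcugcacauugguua
miR-20a-5p: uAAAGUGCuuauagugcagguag
miR-21-5p: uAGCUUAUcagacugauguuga
miR-10a-5p: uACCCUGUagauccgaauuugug
miR-16-5p: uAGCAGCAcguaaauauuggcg
let-7a-5p: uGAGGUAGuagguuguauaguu
miR-29c-3p: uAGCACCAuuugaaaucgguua
The second set holds 2 of the 3 miRNAs that differed between the control oligonucleotides, the miR-34 member of the highest level, and 2 miRNAs that came closest to the threshold. The mature sequence of miR-34c-5p (chr11:111513451-111513473, plus strand) was not used here.
miR-34a-5p: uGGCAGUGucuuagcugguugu
miR-34b-5p: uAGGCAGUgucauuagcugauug
miR-9901: cGGUCGCCgcgguucgccgcc
miR-7-5p: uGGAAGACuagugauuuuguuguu
miR-12136: gAAAAAGUcauggaggcc

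The 6 libraries held 2038382 to 4034465 miRNA counts, and replicate siCtrl 3 had the fewest. Between 927 and 1148 miRNAs had at least 1 count in a library. When each library was brought to the lowest depth by calculation, the expected number was 927 to 978 in siCtrl and 929 to 981 in ASO-Ctrl, so the 2 groups overlapped. Over the 6 libraries, 1588 miRNAs had a count and 1064 had none, and 701 were seen in every library. A count of 0 allowed up to 3 counts, which is 0.770 to 1.65 CPM, the counts scaled to library size with TMM factors that serve as the level throughout. The counts were concentrated: the 10 most abundant miRNAs took 40.8% to 46.9% of a library and the 50 most abundant took 90.5% to 91.7%. By mean level, 29 miRNAs stood at 10000 CPM or more, 84 at 1000 or more, 205 at 100 or more and 382 at 10 or more. Near-identical miRNAs shared reads, so these shares and numbers count some reads more than once.

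The miRNA of the highest mean level was miR-9-5p, a miRNA of the developing nervous system. The locus kept for it, on chromosome 5 (GRCh38, chr5:88666902-88666924, minus strand), lies in an exon of the long non-coding RNA LINC00461. miR-9-5p stood at 82538, 91742 and 97544 CPM in siCtrl and at 84015, 93506 and 91913 CPM in ASO-Ctrl. The groups overlapped and differed by a log2 fold change of -0.01 ± 0.14 (SE; ASO-Ctrl minus siCtrl throughout). Both arms of the miR-335 hairpin, in an intron of the imprinted gene MEST on chromosome 7, came next. miR-335-5p stood at 55466, 75427 and 89143 CPM in siCtrl against 67275, 63047 and 65110 in ASO-Ctrl. miR-335-3p stood at 65569, 48469 and 51410 CPM against 55613, 49705 and 51665.

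Members of the MIR17HG transcript on chromosome 13, host of the growth-promoting miR-17~92 cluster, followed. miR-19a-3p had 15538, 52150 and 60556 CPM in siCtrl and 43141, 34576 and 38314 in ASO-Ctrl. Replicate siCtrl 1 was thus the lowest of all 6 libraries and the other siCtrl libraries were the highest. miR-20a-5p, of the same transcript, had the same order, at 22118 CPM in siCtrl 1, 39014 and 43384 in the other siCtrl libraries and 32392 to 35667 in ASO-Ctrl. miR-19b-3p is a near copy of miR-19a-3p and shared its reads, so its nearly equal level (mean 41910 CPM in siCtrl and 37947 in ASO-Ctrl) is no separate measurement.

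Other near copies among the 20 most abundant shared reads, so their levels are not separate measurements. The let-7 members with the seed GAGGUAG (let-7a, 7b, 7c, 7e, 7f and 7g, and miR-98), tumour suppressors that are low in embryonic cells, each had means of 25401 to 30208 CPM. By counts within 10% in every library, let-7a, 7c, 7e and 7f formed 1 group and let-7b, 7g and miR-98 another. This cutoff does not show that the 2 groups were separate pools of reads. let-7b-5p averaged 28065 CPM in siCtrl and 25939 in ASO-Ctrl, against 30208 and 27802 for let-7a-5p. let-7a-5p, the most abundant of them, stood at 37333, 23067 and 30225 CPM in siCtrl and 23196, 29084 and 31125 in ASO-Ctrl. miR-199a-3p and miR-199b-3p have the same mature sequence and averaged 37960 and 37952 CPM in siCtrl and 36718 and 36708 in ASO-Ctrl. miR-10a-5p and miR-10b-5p, from the HOX gene clusters on chromosomes 17 and 2, averaged 32059 and 31970 CPM in siCtrl and 31839 and 31758 in ASO-Ctrl. For all of these replicate siCtrl 1 was the highest library.

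The remaining members of the 20 were miR-21-5p, a widely expressed miRNA raised in many cancers, miR-16-5p, a repressor of cell cycle genes, and miR-29c-3p, which targets collagen messages. miR-21-5p ran from 23315 to 43806 CPM in siCtrl and from 28124 to 37886 in ASO-Ctrl. miR-16-5p ran from 26433 to 44228 CPM and from 28348 to 35335. miR-29c-3p was the only one of the 20 whose groups did not overlap, at 23276, 20074 and 22683 CPM in siCtrl and 24587, 28229 and 29006 in ASO-Ctrl. Its log2 fold change was 0.31 ± 0.14 and its adjusted p was 0.64 (edgeR quasi-likelihood test), so it did not pass the test. None of the 20 passed.

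**Figure D1:**
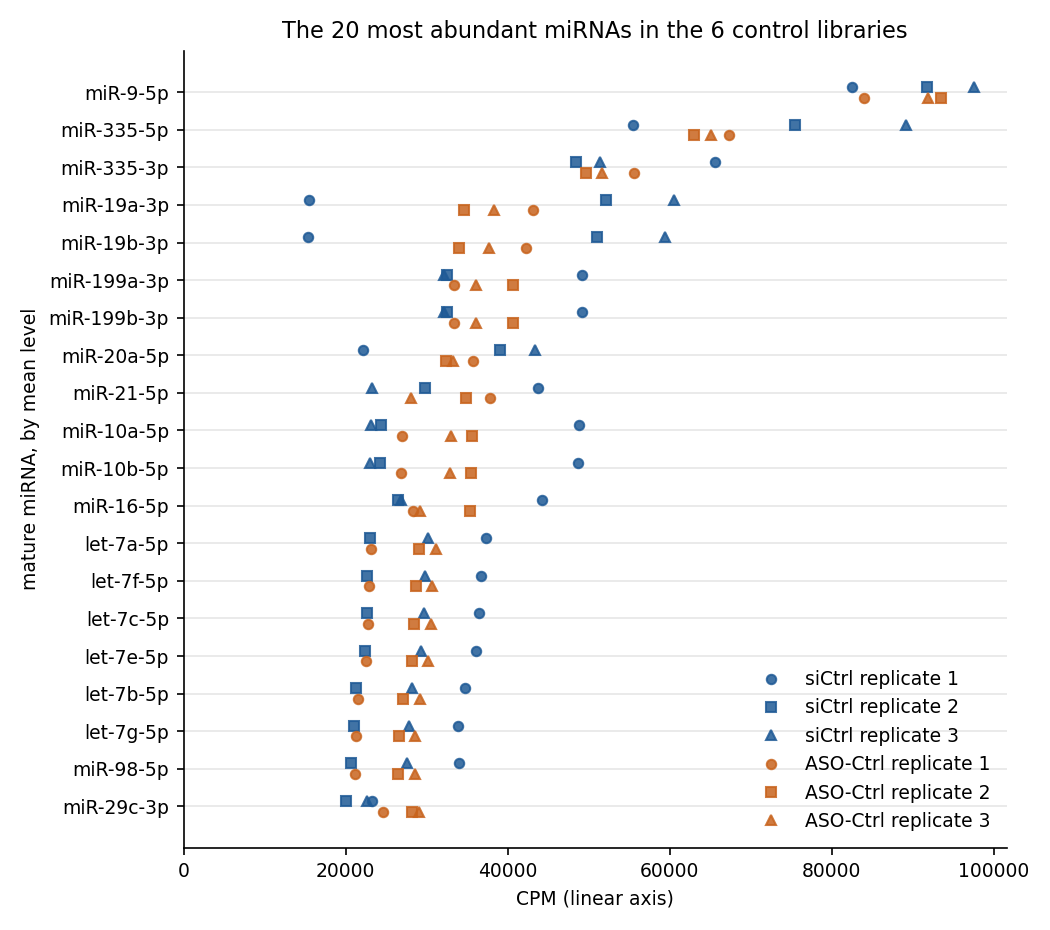
Level of each of the 20 most abundant miRNAs (vertical axis, ordered by mean) in each of the 6 control libraries (horizontal axis, CPM, linear), with siCtrl in blue and ASO-Ctrl in orange and 1 marker shape per replicate number. The ASO-Ctrl points lie close together, while replicate siCtrl 1 lies apart from the other siCtrl libraries for miR-19a-3p, miR-19b-3p, miR-10a-5p and miR-16-5p.

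Abundant miRNAs of this line shared a first base. Of the counts on miRNAs with a known sequence (92.8% to 94.7% of a library), 82.5% to 86.0% fell on miRNAs that begin with U, and 8.82% to 12.9% on those that begin with A. Reads shared by near-identical miRNAs enter these shares more than once. Over all 2358 miRNAs with a sequence, 872 (37.0%) begin with U, and among the 50 most abundant 36 of 45 with a sequence do. Argonaute proteins are known to favour U or A at this base. By position of the kept locus, 27 of the 50 most abundant lie in introns of annotated genes, 17 in exons and 6 between genes, against 1515, 410 and 727 of all 2652. For a miRNA with several loci, the kept locus need not be its source.

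Marker lists for several cell types were read in the 6 libraries to check the label. These are bulk libraries, in which fewer cells of a type and less RNA per cell cannot be told apart. The neural and neuroendocrine list held 27 miRNAs in the files, and its summed level was 108012 to 123891 CPM in siCtrl and 105671 to 115355 in ASO-Ctrl, most of it miR-9-5p. miR-7-5p, which marks endocrine cells and neurons, stood at 9547 CPM or more in every library, and miR-128-3p, a neuronal miRNA, averaged 2055 CPM in siCtrl and 2238 in ASO-Ctrl. Further neuronal members lay lower: miR-218-5p averaged 395 CPM in siCtrl and 370 in ASO-Ctrl, miR-137-3p 70.7 and 85.9, and miR-129-5p 28.3 and 33.1. Some defining members were near 0. miR-375-3p, abundant in many neuroendocrine tumours and in pancreatic islets, averaged 0.669 CPM in siCtrl and 0.568 in ASO-Ctrl, with 11 counts over the 6 libraries, and miR-124-3p, the main neuronal miRNA, had 6 counts in all. miR-124-5p, miR-7-2-3p, miR-375-5p, miR-128-2-5p, miR-138-1-3p and miR-219a-2-3p had none, and most of these are the less abundant strand of their hairpin, those of miR-7 and miR-128 among them. The list was thus spread from the highest level in the libraries to 0.

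The cluster of miR-183, miR-96 and miR-182, known from sensory organs, was present, with miR-182-5p at 2985 ± 895 CPM (SD, n = 3) in siCtrl and 2785 ± 343 in ASO-Ctrl. The miR-200 family, which holds cells in an epithelial state, was low: its highest member, miR-141-3p, averaged 33.2 CPM in siCtrl and 37.7 in ASO-Ctrl. By contrast, the list of stromal, vessel and liver miRNAs summed to 120550 to 204082 CPM in siCtrl and 130507 to 161545 in ASO-Ctrl. That sum came from miR-199a-3p, miR-199b-3p, miR-10a-5p and miR-10b-5p, with miR-199a-5p at 3521 CPM in siCtrl and 3388 in ASO-Ctrl. The first 4 are near copies in pairs that shared reads, so the sum counts those reads more than once. The endothelial miRNAs miR-126-3p and miR-126-5p were present, at 818 and 466 CPM in siCtrl and 1041 and 596 in ASO-Ctrl. miR-122-5p and miR-122-3p of hepatocytes had no counts, and the smooth muscle miRNAs miR-143-3p and miR-145-5p averaged 147 and 2.47 CPM in siCtrl and 232 and 4.38 in ASO-Ctrl.

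Blood cell miRNAs were low, with a summed level of 50.1 to 106 CPM in siCtrl and 64.7 to 92.2 in ASO-Ctrl, nearly all of it miR-142-3p. miR-223-5p, miR-486-5p and miR-486-3p had no counts, and the erythroid miR-451a had 2. Muscle miRNAs summed to 364 to 446 CPM in siCtrl and 456 to 748 in ASO-Ctrl, with miR-1-3p at 298, 289 and 332 CPM in siCtrl and 320, 395 and 524 in ASO-Ctrl, and miR-208a-3p, miR-499a-5p and miR-499a-3p had none. The embryonic stem cell clusters (miR-302 with miR-367, and miR-371 to miR-373) were essentially absent: 12 of 16 members had no counts and no member averaged over 0.324 CPM. Entries miR-374b-5p, miR-374b-3p, miR-374c-5p and miR-374c-3p were listed at 0 in every library. They overlap each other at one locus of the X chromosome, so no level can be read from these zeros.

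Between the control oligonucleotides, 626 miRNAs passed the filter on low counts and were tested, and 3 differed at an adjusted p under 0.05 (0.479%). All 3 were higher in ASO-Ctrl: miR-34c-5p, miR-34b-5p and miR-9901. No miRNA was lower in ASO-Ctrl at this threshold (0%), and 44 miRNAs (7.03%) had an unadjusted p under 0.05 in either direction. The libraries of the 2 groups did not overlap for 75 miRNAs (12%), of which 44 (7.03%) were above siCtrl and 31 (4.95%) below. DESeq2 called 5, namely the same 3 and, lower, miR-7-5p and miR-12136. The 3 calls did not survive every alternative: all were lost when the model was fitted on these 6 libraries alone, when a fold of at least 1.5 was required, or when ASO-Ctrl 3, siCtrl 2 or siCtrl 3 was left out.

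**Figure D2:**
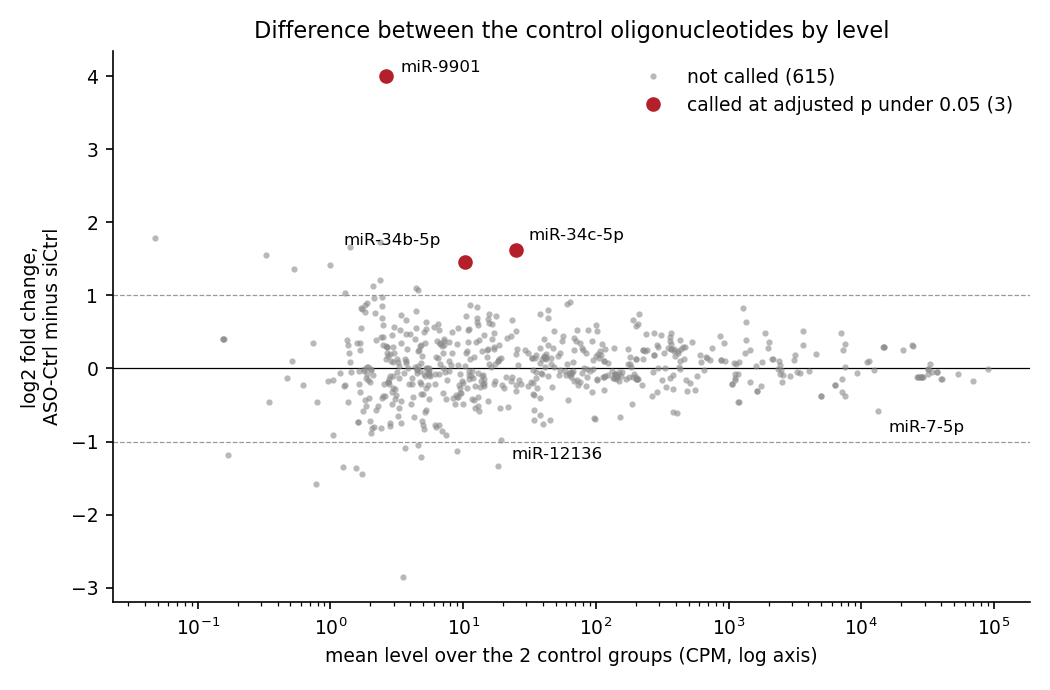
Log2 fold change, ASO-Ctrl minus siCtrl (vertical axis), against the mean level over both groups (horizontal axis, CPM, log scale) for the tested miRNAs with a count in these 6 libraries, with the 3 called in red and the others in grey. The dashed lines mark a log2 fold change of 1 in either direction, and at 1000 CPM or more the points stay within them (largest absolute value 0.83).

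miR-34b and miR-34c come from neighbouring hairpins on chromosome 11, between annotated genes, and belong to the miR-34 family, known as direct targets of p53 that restrain the cell cycle. miR-34c-5p stood at 14.99, 9.63 and 12.7 CPM in siCtrl and at 30.8, 34.1 and 49.1 CPM in ASO-Ctrl. Every ASO-Ctrl library was above every siCtrl library. The log2 fold change was 1.61 ± 0.30 (SE), with an adjusted p of 0.0103 by the edgeR quasi-likelihood test. Counts behind it were 92 over the 3 siCtrl libraries and 402 over the 3 ASO-Ctrl libraries.

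miR-34b-5p (chr11:111512950-111512972, plus strand) stood at 6.75, 5.65 and 3.85 CPM in siCtrl and at 17.2, 11.6 and 16.8 CPM in ASO-Ctrl. The groups again did not overlap. Its log2 fold change was 1.46 ± 0.31, with an adjusted p of 0.0229 by the edgeR test. Its counts were 42 in siCtrl and 163 in ASO-Ctrl. The seed printed above for miR-34b-5p, AGGCAGU, is not that of miR-34a-5p, GGCAGUG.

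The other members of the family did not pass. miR-34a-5p, which comes from its own host transcript MIR34AHG on chromosome 1 and is far more abundant, stood at 2688, 3282 and 3761 CPM in siCtrl and 4260, 3805 and 4101 in ASO-Ctrl. Its groups did not overlap, and its log2 fold change was 0.32 ± 0.16 with an adjusted p of 0.68 (edgeR). miR-34a-3p averaged 16.2 CPM in siCtrl and 16.5 in ASO-Ctrl, and miR-34b-3p averaged 1.21 and 2.17 CPM. Of 9 family members in the files, 6 were tested and 2 were called higher, against 3 of all 626 (0.479%). The median log2 fold change of the 6 was 0.58, against 0.00 for all 626.

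miR-9901 (chr16:34163601-34163621, plus strand, between annotated genes) is a miRNA entry with little background, and 85.7% of its bases are G or C. It was named because only 3 miRNAs were called, since its mean is under the 10 CPM otherwise required. It had 1, 0 and 1 counts in siCtrl and 20, 16 and 16 in ASO-Ctrl. Per count of each group's libraries this is a ratio of 18.4, with a 95% exact interval from 4.83 to 156 that covers counting error only. The adjusted p was 0.0165 (edgeR), on a fitted log2 fold change of 4.0 ± 0.81 that depends on the prior count.

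A pair of miRNAs came closest to the threshold from the other side. miR-7-5p, at a locus in the HNRNPK gene on chromosome 9, stood at 16264, 16674 and 15241 CPM in siCtrl and at 10475, 12016 and 9547 CPM in ASO-Ctrl. The groups did not overlap. Its log2 fold change was -0.59 ± 0.15 with an adjusted p of 0.0801 (edgeR). miR-12136, an entry on chromosome 1 that belongs to a list of entries often read as fragments of other RNAs, stood at 26.98, 22.6 and 26.97 CPM in siCtrl and at 13.6, 13.1 and 11.9 CPM in ASO-Ctrl. Its log2 fold change was -0.98 ± 0.25, also with an adjusted p of 0.0801. Each was called under 5 of the 12 alternatives that kept all 6 libraries, and in none of those that left out a library.

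Libraries of the same 2 kinds of oligonucleotide, none of them shared with the control groups, gave a further reading of these miRNAs: 6 libraries with antisense oligonucleotides to NEAT1, the long RNA that scaffolds paraspeckles, and 6 with siRNAs to NONO, a paraspeckle protein. Here the kind of oligonucleotide and its target cannot be told apart. Of the 626 tested miRNAs 30 were called (4.79%), 12 higher (1.92%) and 18 lower (2.88%) in ASO-NEAT1. miR-34b-5p and miR-34c-5p were the 2 called in both comparisons, and with opposite sign: they were lower in ASO-NEAT1 than in siNONO, by log2 fold changes of -1.56 ± 0.20 and -1.83 ± 0.20 (adjusted p 9.09e-06 and 1.92e-06, edgeR). miR-7-5p and miR-12136 were lower in ASO-NEAT1 by -0.61 ± 0.10 and -0.86 ± 0.17 (adjusted p 0.00065 and 0.00298, edgeR), the same sign as between the controls. miR-9901 was 1.73 ± 0.53 higher on the fitted log2 scale, with an adjusted p of 0.0607.

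The levels in all 8 groups place these signs. miR-34c-5p ran from 23.1 to 49.1 CPM over the 9 libraries of the 3 antisense groups, from 7.57 to 15.7 CPM over the 9 libraries of the siCtrl and siSFPQ groups, and from 70.1 to 184 CPM over the 6 siNONO libraries. The 3 ranges did not overlap. miR-34b-5p gave the same order, from 11.0 to 19.6 CPM, from 2.26 to 6.75 CPM and from 30.3 to 69.1 CPM. miR-34a-5p did not separate in this way: 3311 to 4456 CPM in the antisense libraries overlapped with 1699 to 3761 CPM in siCtrl and siSFPQ, and only siNONO, at 5389 to 10210 CPM, stood apart. The siRNA libraries were split here with earlier results of these data known, and the ranges include the control libraries behind the calls. Over all 15 siRNA libraries, miR-34c-5p ran from 7.57 to 184 CPM and miR-34b-5p from 2.26 to 69.1 CPM. The antisense ranges lay inside both. How many of the 626 miRNAs separated in this way was not counted.

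miR-9901 was not uniformly high with antisense oligonucleotides. It had 20, 16 and 16 counts in ASO-Ctrl, but 9, 3 and 4 in ASO-NEAT1-1047 and 14, 2 and 8 in ASO-NEAT1-1473. Over the 15 siRNA libraries it ran from 0 to 1.32 CPM, and over the 9 antisense libraries from 0.797 to 6.11 CPM, so the ranges overlapped. miR-7-5p lay between 9547 and 12016 CPM in all 9 antisense libraries, within the 6849 to 19907 CPM of the siRNA libraries, where siSFPQ-2 was the lowest group. miR-12136 lay between 11.9 and 20.5 CPM with antisense oligonucleotides and between 17.7 and 81.4 CPM with siRNAs, the siSFPQ groups being highest. These levels across groups are a description and were not tested beyond the 2 comparisons above.

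**Figure D3:**
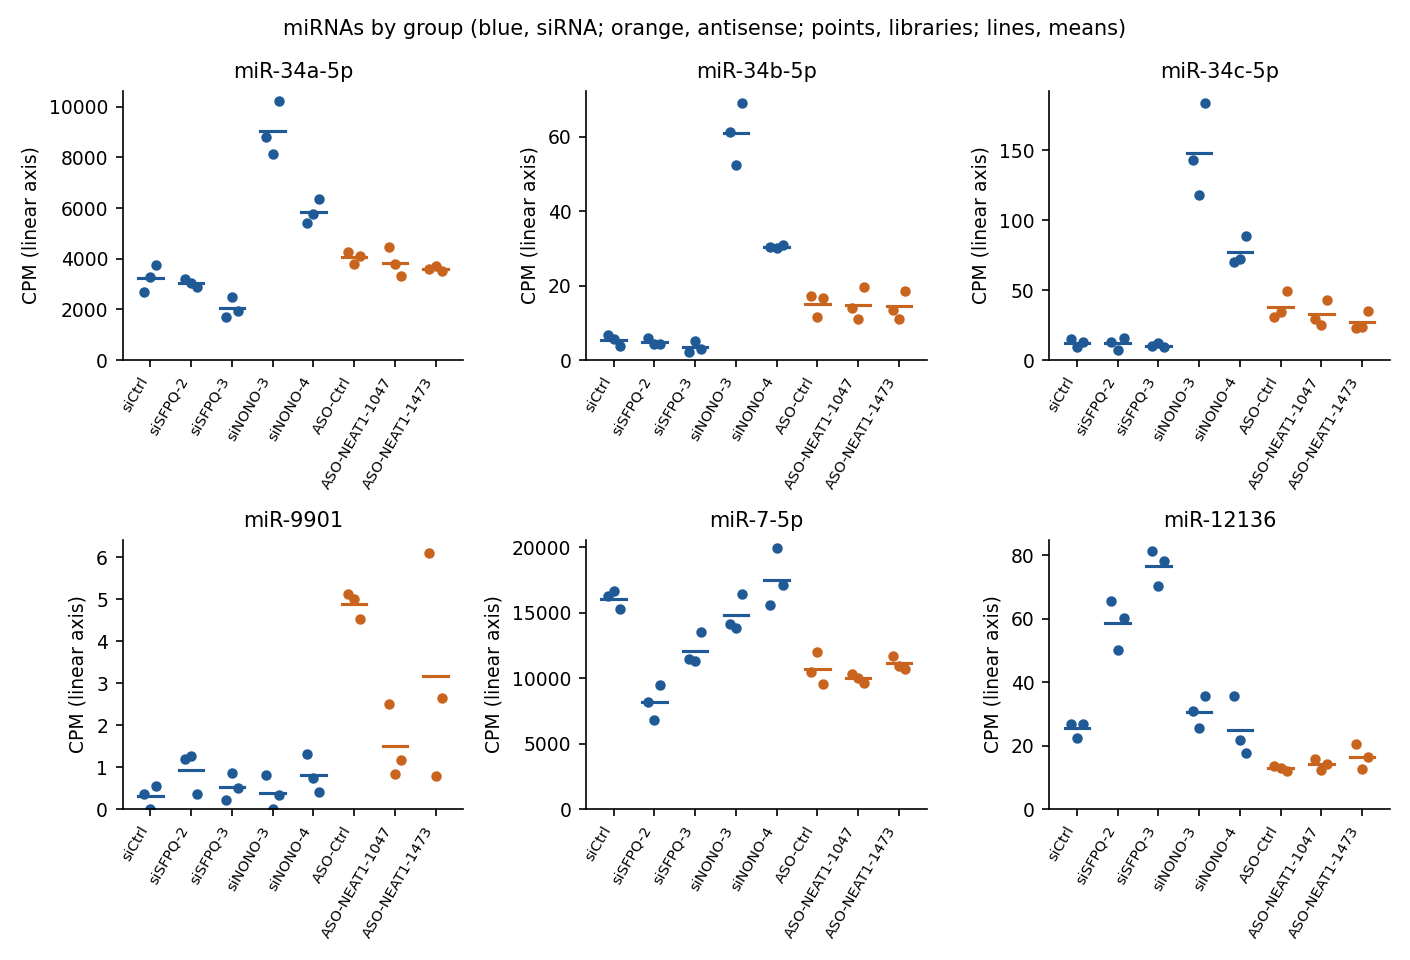
Level in every library (points; horizontal lines are means of 3) of 6 miRNAs, 1 per panel, in the 8 groups of the series (horizontal axis), with siRNA groups in blue and antisense groups in orange (vertical axis, CPM, linear from 0). For miR-34b-5p and miR-34c-5p the 3 antisense groups sit above siCtrl and both siSFPQ groups and below both siNONO groups.

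For the other 27 of 28 miRNA lists, no tested member was called in either direction. The let-7 family had 13 tested members with a median log2 fold change of -0.12, and the miR-17~92 cluster 12 with a median of -0.12. In the neural and neuroendocrine list 16 members were tested and the median was 0.17. The miR-30 family had 11 tested members and a median of -0.07, although its most abundant members were separated. These, miR-30a-5p, miR-30d-5p and miR-30e-5p, shared reads and are no separate measurements. miR-30a-5p stood at 14895, 13001 and 12189 CPM in siCtrl and 15976, 17450 and 15775 in ASO-Ctrl. Its log2 fold change was 0.30 ± 0.16, with an adjusted p of 0.68 (edgeR). The miR-29 family had 7 tested members and a median of 0.20. Muscle had the largest median of all lists (0.78, 5 tested), and after miR-34 came the miR-99, miR-100 and miR-125 families (0.36, 9 tested) and the inflammation, interferon and CREB responsive list (0.32, 7 tested). The 14q32 cluster had the lowest median (-0.36, 7 tested), and no group mean of a member exceeded 3.46 CPM.

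The 5 tested muscle miRNAs had log2 fold changes from 0.01 to 0.90, and none passed the test. miR-133a-3p stood at 29.6, 49.8 and 53.4 CPM in siCtrl and 65.2, 75.7 and 107 in ASO-Ctrl, with a log2 fold change of 0.90 ± 0.30 and an adjusted p of 0.46 (edgeR). miR-133b, of the same family and at a similar level, gave 0.89 ± 0.30 and may not be a separate measurement. Among miRNAs that respond to inflammation, miR-146a-5p averaged 405 CPM in siCtrl and 497 in ASO-Ctrl, but it shared reads with miR-146b-5p. In the same list miR-155-5p had no counts. In the list of entries often read as fragments of other RNAs, 14 were tested and 5 did not overlap between groups, 1 above and 4 below, against 75 of all 626 (12%; 7.03% above and 4.95% below). Of the 4, miR-1268b, averaged 121 CPM in siCtrl and 75.1 in ASO-Ctrl, and miR-1268a shared its reads.

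**Figure D4:**
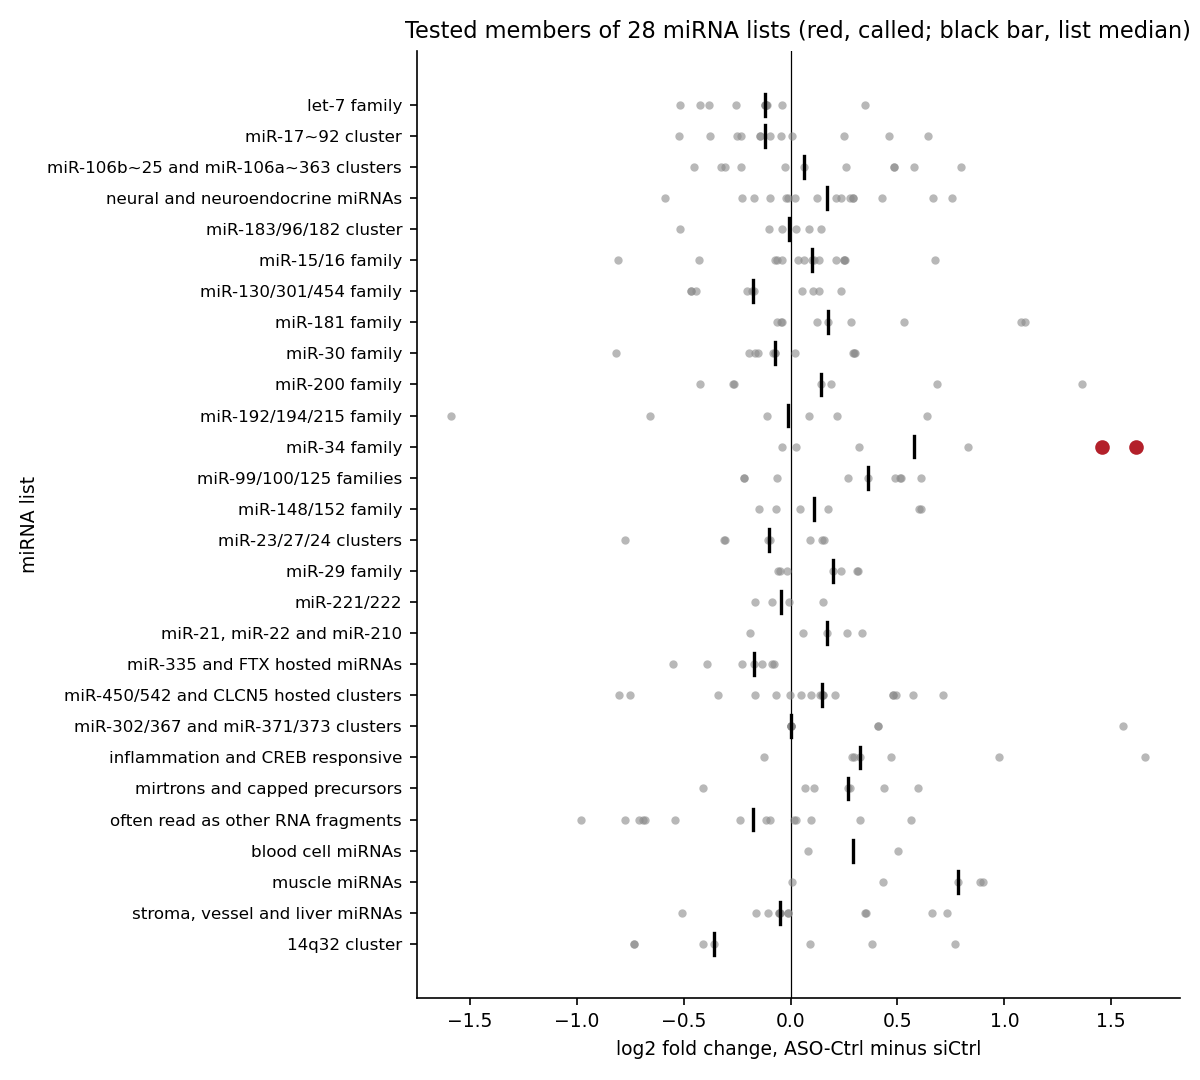
Log2 fold change, ASO-Ctrl minus siCtrl (horizontal axis), of each tested member (grey points) of 28 miRNA lists (vertical axis), with called members in red and a black bar at each list's median. Both called points are in the miR-34 family, and most list medians lie close to 0.

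How large a difference could have been missed was read from the intervals, which rest on a spread shared by all 8 groups. The larger spread of siCtrl, given below, does not enter them in full. They may therefore be too narrow for this comparison. The median SE of the log2 fold change was 0.330 over the 626 miRNAs and 0.222 over the 84 at 1000 CPM or more. For 332 of the tested miRNAs the 95% interval lay within a 2-fold change either way, and for 80 within 1.5-fold. Of the 84 abundant ones, 77 lay within 2-fold and 30 within 1.5-fold, and their median absolute log2 fold change was 0.139 with a maximum of 0.83. Absolute log2 fold changes above 1 occurred in 25 tested miRNAs, but in only 3 of the 382 at 10 CPM or more: miR-34c-5p, miR-34b-5p and miR-652-3p, which was lower at -1.34 ± 0.44 with an adjusted p of 0.46 (edgeR). In simulated counts for this comparison, with 200 of the 626 miRNAs changed, 49.3% of 2-fold changes and 16.4% of 1.5-fold changes were found. That is far more changed miRNAs than were called here, which eases the adjusted threshold. Counts were drawn independently, with 1 spread per miRNA in all groups, so the larger spread of siCtrl, given below, is not included. The share found may therefore be lower in the data.

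The choice of arm was compared in 94 hairpins with both arms at 10 CPM or more. The 5p arm was higher in all 6 libraries for 53 hairpins, the 3p arm for 33, and 8 were mixed or even. In 55 hairpins one arm exceeded the other by more than 10-fold. miR-19a-3p exceeded its 5p partner 2765-fold in siCtrl and 2957-fold in ASO-Ctrl, but it shared reads with miR-19b-3p. miR-21-5p exceeded miR-21-3p 315-fold and 266-fold. Arms that shared reads with a near copy may hold reads of other hairpins. Their ratios, which enter the numbers above, do not measure arm choice alone. The 5p arms of MIR10A and MIR10B shared reads, yet their 5p to 3p ratios in siCtrl were 27.2 and 2381. MIR335 was close to even, with a 5p to 3p ratio of 1.32 in siCtrl and 1.25 in ASO-Ctrl, and replicate siCtrl 1 was the only library in which its 3p arm was higher.

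No hairpin changed its 5p to 3p ratio between the controls at an adjusted p under 0.05 (0% of 94; limma), and 11 had an unadjusted p under 0.05 (11.7%). The lowest adjusted p was 0.36, for MIR26A2, chosen here after its values were seen. Its log2 ratio was 7.87, 7.78 and 7.61 in siCtrl and 8.08, 9.002 and 8.82 in ASO-Ctrl, a difference of 0.88 ± 0.27. Without ASO-Ctrl 1 that difference was 1.16 with an adjusted p of 0.0396 (limma). The 5p arm of MIR26A2, miR-26a-5p, shared reads with miR-26b-5p. Arms of MIR625 had nearly the same counts in every library and shared their reads, so that hairpin carries no measure of arm choice.

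The total miRNA output was read against the synthetic spike-ins, of which 0.1 uL had been added to 100 ng of RNA. The ratio of miRNA to spike-in counts was 37.2, 37.9 and 44.5 in siCtrl and 36.7, 39.3 and 43.3 in ASO-Ctrl. The ranges overlapped almost completely. The difference in mean log2 ratio was -0.0035 (exact two-sided permutation test, p = 1.0; 3 against 3 cannot go below 0.10). Since the spike-ins were added to a fixed mass of RNA, this ratio says nothing about RNA per cell.

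Spread between replicates differed between the groups. Over the 205 miRNAs at 100 CPM or more the median coefficient of variation was 30.9% in siCtrl and 14.6% in ASO-Ctrl. Replicate siCtrl 1 lay outside the range of the other 5 libraries for 74.1% of the 205, siCtrl 3 for 58.5% and siCtrl 2 for 23.4%, against 13.7% to 15.6% for the ASO-Ctrl libraries. Each miRNA has 1 lowest and 1 highest library, so these shares are tied. Where siCtrl libraries take both ends, no ASO-Ctrl library can, so the low ASO-Ctrl shares are no separate observation. In a principal component analysis of the 6 libraries the first component (54.8% of the variance) set siCtrl 1, at -15.3, apart from siCtrl 2 and siCtrl 3, at 8.35 and 10.7, with the ASO-Ctrl libraries between them at -4.84 to 3.37. The second component (19.5%) separated the groups, with siCtrl from -7.02 to -3.28 and ASO-Ctrl from 0.525 to 7.63. Replicate siCtrl 1 also moved with base composition, by a grouping chosen after the data were seen: relative to the other 2 siCtrl libraries its median log2 level was -0.81 for the 63 miRNAs under 40% GC, 0.24 for the 60 from 40% to under 50% and 0.74 for the 52 at 50% or more. The deviations of the 3 libraries of a group sum to 0, so opposite values in siCtrl 2 and siCtrl 3 are no separate observation. The medians of the ASO-Ctrl libraries ran from -0.51 to 0.41 and also moved with base composition. From the lowest to the highest GC class they were 0.13, -0.14 and -0.51 in ASO-Ctrl 1. In ASO-Ctrl 2 they were -0.19, 0.13 and 0.41, and in ASO-Ctrl 3 0.04, -0.04 and 0.22. The part of base composition in the results was not tested. Without siCtrl 1, 8 miRNAs were called: the same 3, miR-425-5p and miR-92b-5p higher, and miR-301a-3p, miR-301b-3p and miR-6844 lower. miR-301a-3p and miR-301b-3p shared their reads, so they are no separate measurements.

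**Figure D5:**
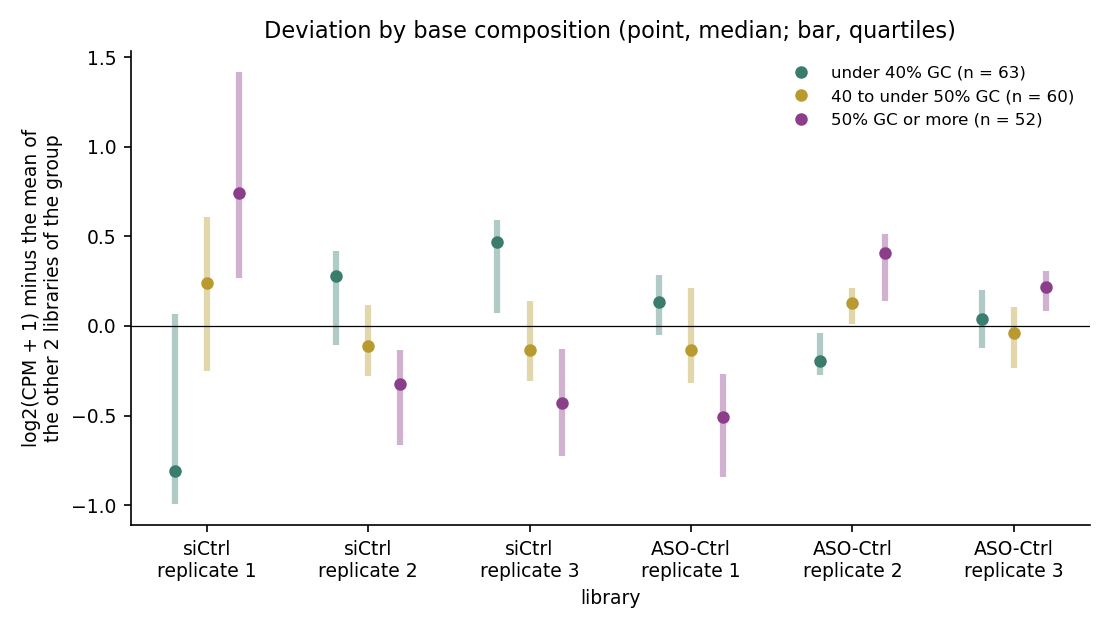
Median (points) and quartiles (bars) of the log2(CPM + 1) of a library minus the mean of the other 2 libraries of its group (vertical axis), for miRNAs at 100 CPM or more in 3 classes of GC content (colours), in each of the 6 control libraries (horizontal axis). Replicate siCtrl 1 is low for miRNAs poor in GC and high for those rich in GC, and the opposite values in siCtrl 2 and siCtrl 3 follow largely from the centring within the group. ASO-Ctrl 1 and ASO-Ctrl 2 show smaller trends, in opposite directions.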

How the data were processed

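Small RNA libraries of SBC-3 cells were made with the QIAseq miRNA Library Kit, per the labels' protocols. Per the file headers, the authors deposited whole read counts for each mature miRNA locus, made by featureCounts 2.0.3. Also named in the submitters' processing notes are Trimmomatic 0.39, Bowtie 1.3.0, UMI-tools 1.1.1, DESeq2 1.38.1 and hg38. Whether counts were collapsed by molecular identifier, and the strand and multimapping settings, are not given in the sources used here. Near-identical miRNAs share reads (77 of those tested, in 33 groups), so CPM over such groups count reads more than once. Floors and the exact interval of a count ratio cover counting error only; intervals of fitted fold changes include the spread between libraries.

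From these counts, 1 locus per mature miRNA was kept (169 have several), and 52 spike-ins were set apart. Names were matched to RefSeq GRCh38.p14 by position for 2364 miRNAs and to annotated hairpins for 284; 4 stayed unnamed, and 2358 had a sequence. Host genes are from GENCODE for GRCh38. Counts of all 24 libraries were fitted in edgeR 4.0.16 (R 4.3.3) with a term per group, TMM factors, filterByExpr at a minimum count of 10, the quasi-likelihood test and Benjamini-Hochberg adjustment, called at 0.05. The tested miRNAs include 8 with no count in the 6 control libraries. Arm ratios, log2((5p CPM + 1)/(3p CPM + 1)), were fitted in limma 3.58.1. DESeq2 1.42.0, other scalings, filters, locus rules and sample sets were alternatives. The fit was tested on simulated data.

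Named were the 20 most abundant miRNAs, called miRNAs at 10 CPM or more, called hairpins, up to 4 members per list and marker members with no counts; any other is named as an exception or as a list's defining member. The members and lists were chosen with earlier results of these data known.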

Additional observations from a re-analysis of the deposited data

How the results depend on the processing

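Between the controls, 3 miRNAs were called. The count was 5 with RLE size factors, with DESeq2, with 1 miRNA kept per group sharing reads and with the replicate block, and 0 with only the groups compared and with a fold of at least 1.5. Leaving out 1 library gave 0 to 8: 8 without siCtrl 1, 3 without ASO-Ctrl 2, 1 (miR-34c-5p) without ASO-Ctrl 1, and 0 without ASO-Ctrl 3, siCtrl 2 or siCtrl 3. The log2 fold change of miR-34c-5p stayed between 1.36 and 1.71 and that of miR-34b-5p between 1.24 and 1.59; their adjusted p reached 0.162 and 0.472, and miR-34b-5p was not called with spike-in totals (0.0674) or with no low count filter (0.0516), where miR-3168 was called lower. The fitted value of miR-9901 ran from 3.33 to 4.47, with an adjusted p of up to 0.162. Of 112 named miRNAs that were not called, 61 changed sign under some alternative.

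Between ASO-NEAT1 and siNONO, 30 were called, 51 with the replicate block, 48 with DESeq2, 6 with a fold of at least 1.5 and 19 to 52 with 1 library left out (19 without siNONO-4 replicate 3, 52 without ASO-NEAT1-1047 replicate 3). With library totals 8 were higher and 30 lower, and with spike-in totals 17 and 12. Same-numbered control libraries had correlations of -0.42, -0.28 and 0.10 in their deviations from the group means. Those of differently numbered libraries ran from -0.45 to 0.47. With 3 libraries per group, these values cannot decide whether replicate numbers pair the controls. Under the replicate block the 5 control calls added miR-17-3p, higher, and miR-12136, lower.

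Hairpins called numbered 0 to 1 with 1 library left out and 0 otherwise. With the replicate block the lowest adjusted p was 0.0502 (limma), against 0.36 in the main fit, and 14 hairpins had an unadjusted p under 0.05, against 11. The spike-in difference ran from -0.067 to 0.078 with 1 library left out. RLE size factors moved the median log2 fold change of all miRNAs to -0.067, and DESeq2 to -0.066. Of the 3 called miRNAs, miR-9901 had the fewest counts, 2 in siCtrl, and miR-34b-5p had 42.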
